A study of Mus musculus with 39 samples.

Results

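Carboxylesterases are hydrolases that cleave ester and amide bonds, and 10 of their genes are described here in mouse liver and spleen: Ces1b, Ces1d, Ces1e, Ces1f, Ces1g, Ces2a, Ces2c, Ces2e, Ces3a and Ces3b. The members were taken by symbol from the deposited expression tables, which hold 54735 genes per tissue. All 10 members passed a filter on low values in liver, and 1 of them, Ces1d, passed it in spleen. The same tables hold 10 further carboxylesterase genes, among them Ces1c, Ces2g and Ces4a, which are given for comparison.

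Most carboxylesterases of the liver sit in the lumen of the endoplasmic reticulum, where they split ester drugs, pesticides and prodrugs and also hydrolyse neutral lipids. Ces1d, called triacylglycerol hydrolase, mobilises stored triglyceride for the assembly of very low density lipoprotein. The family is a textbook target of xenobiotic receptors, the nuclear receptors that switch on drug metabolism when foreign chemicals enter the hepatocyte.

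RNA was sequenced from livers and spleens of 4-week-old C57BL/6 animals. They carried a knockout (KO) of SXR, also named PXR, the steroid and xenobiotic receptor that the gene Nr1i2 encodes, or were wild type (WT). They had received about 54 µg per kg per day of PCB-153, a persistent polychlorinated biphenyl, from the perinatal period on, or DMSO as the vehicle. The 4 groups of each tissue were therefore KO PCB, KO DMSO, WT PCB and WT DMSO, with 5 libraries in each group except 4 in WT DMSO spleen, 39 libraries in all. The labels give neither litters nor the kind of deletion. Whether each library is a different animal is not stated either, so that every p-value below rests on sample-to-sample spread that could be technical.

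Between 15.23 and 28.65 M reads were assigned to genes in each liver library, and between 16.1 and 29.52 M in each spleen library. In liver the targeted gene Nr1i2 read 612 to 1155 normalised counts in KO PCB and 449 to 969 in KO DMSO, against 1019 to 1939 in WT PCB and 1328 to 1781 in WT DMSO. The KO PCB and WT PCB groups overlapped, and Nr1i2 was not called between them (log2 fold change −0.69, limma adjusted p = 0.111), while it was lower in KO DMSO than in WT DMSO (−1.18, adjusted p = 0.00415). In spleen it read 43.0 to 57.0 normalised counts in the samples labelled KO PCB and 42.9 to 62.8 in those labelled KO DMSO, against 0 to 2.23 in WT PCB and 0 to 2.27 in WT DMSO. The spleen values run against the genotype labels, so those samples are called "labelled KO" below, and every direction in spleen rests on the labels alone. Gene-level counts carry no information on single exons. Albumin (Alb), which defines hepatocytes, read 1288320 to 1918990 normalised counts in every liver library, and the fat cell markers Adipoq and Plin1 had medians of 0 there. Other adipocyte markers were read in liver. The sum of all 8, which is used for spleen below, was 1813 to 4552 normalised counts in KO PCB livers and 2264 to 4895 in KO DMSO. It was 1541 to 4604 in WT PCB and 1976 to 3210 in WT DMSO livers.

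The members lie in 2 gene clusters on chromosome 8 (GRCm38). Ces1b, Ces1d, Ces1e, Ces1f and Ces1g are among 8 genes on the minus strand at chr8:93020214-93379725. Ces2a, Ces2c, Ces2e, Ces3a and Ces3b are among 11 genes on the plus strand at chr8:104734003-105150109. Near-identical copies limit how reads can be assigned: of the 50-base words of its transcripts, Ces3a shares 25.6% with Ces3b, and Ces3b shares 26.2% with Ces3a. Ces2c shares 36.1% of its words with other genes, most of them with the pseudogene Ces2d-ps, and Ces2a shares 17.3%, most of them with the pseudogene Gm7208. Ces1b shares 11.6%, mainly with Ces1c, and the remaining members share at most 3.30%. The labels do not tell how reads matching several copies were counted, so values of Ces3a, Ces3b, Ces2c and Ces2a are uncertain to that extent. They are also silent on the strand setting of the counting, and Ces3a overlaps Gm45724 on the other strand. Ces1d overlaps Gm45909 on the same strand.

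RefSeq gave an upstream sequence for 7 of the 10 members (GRCm38.p6). The 250 bases before the start are shown for Ces3b and Ces2a. Ces3b was lower in KO livers under PCB-153 and when both exposures were averaged, and Ces2a was higher in that average. Capitals mark, on either strand, the letters TATAAA (the core of the TATA box), CCAAT, and AGGTCA or AGTTCA, the half-sites that nuclear receptors bind. The Ces3b sequence spans chr8:105083505-105083754 and the Ces2a sequence chr8:104733753-104734002, both on the plus strand.
Ces3b: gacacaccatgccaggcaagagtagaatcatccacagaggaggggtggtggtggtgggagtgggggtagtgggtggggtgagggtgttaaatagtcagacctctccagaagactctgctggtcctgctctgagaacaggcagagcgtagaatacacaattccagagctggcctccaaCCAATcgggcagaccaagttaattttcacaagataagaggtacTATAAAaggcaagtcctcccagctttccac
Ces2a: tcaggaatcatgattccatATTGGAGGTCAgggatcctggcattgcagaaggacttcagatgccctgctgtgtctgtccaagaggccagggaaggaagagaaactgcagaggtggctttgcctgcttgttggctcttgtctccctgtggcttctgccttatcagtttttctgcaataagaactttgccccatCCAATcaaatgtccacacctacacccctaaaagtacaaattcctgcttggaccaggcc
Ces3b held TATAAA at position −30 and CCAAT at −73, counted back from its start. Ces2a lacked a TATA box match. Its AGGTCA was at position −226, directly beside a CCAAT on the minus strand at −231, and a plus-strand copy of this second motif lay at −58. Over 27025 RefSeq promoters cut to the same length, 12.97% held TATAAA, 34.5% CCAAT, 13.8% AGGTCA and 11.9% AGTTCA. A direct repeat of AGGTCA with 4 bases between its copies, and the same repeat of AGTTCA, each occurred in 0.0111% of promoters and in none of the 7 members' sequences.

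In liver the members spanned a wide range of levels once reads were divided by exon length. Over the 20 liver libraries, the median level in reads per kb of exon, scaled to library size (RPKM), was 552 for Ces3a, known as a male-predominant liver esterase, 244 for Ces1d and 191 for Ces2a. Ces3b had a median of 139.8, Ces1g of 107.6 and Ces1b of 81.8. Ces2e, Ces1f and Ces1e lay together at 60.7, 56.3 and 53.9, and Ces2c was lowest at 9.42.
Ces1d had the highest mean level of the members in KO PCB, and Ces3a in the other 3 groups. In KO PCB the mean length-scaled level of Ces1d was 307 ± 57.4 and that of Ces3a 267 ± 73.5 (SD, n = 5), and in KO DMSO Ces3a had 379 ± 155 and Ces1d 313 ± 90.3 (SD, n = 5). The ranges of these genes overlapped in both KO groups. In WT PCB the level of Ces3a was 697 ± 101 and that of Ces1d 202 ± 35.2 (SD, n = 5), and in WT DMSO they were 683 ± 104 and 206 ± 44.1 (SD, n = 5), with no overlap between both genes in either group. Ces3b took the sixth place in KO PCB, the fourth in KO DMSO and the third in both WT groups, and its range overlapped those of its neighbours in every group. Ces2c stood apart below its neighbour in all 4 groups.

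**Figure D1:**
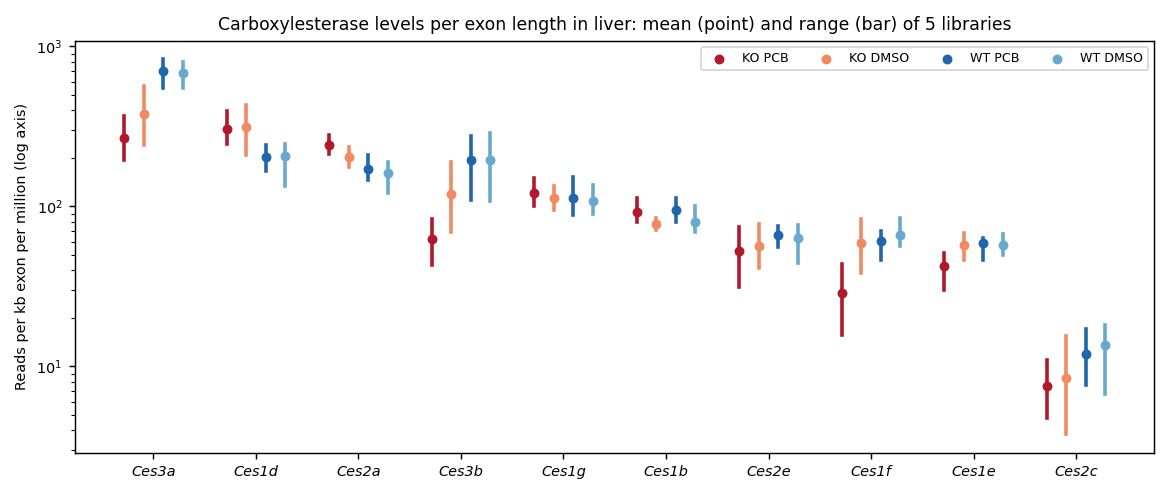
Level of each carboxylesterase gene in liver, in reads per kb of exon scaled to library size (RPKM) on a log axis, with the mean of 5 libraries as a point and their range as a bar for KO PCB, KO DMSO, WT PCB and WT DMSO. The bars of Ces3a and Ces1d overlapped in both KO groups, while Ces3a stood above Ces1d without overlap in both WT groups.

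All 10 members together took 0.298% ± 0.048 of assigned reads in KO PCB livers and 0.344% ± 0.0977 in KO DMSO, against 0.420% ± 0.0488 in WT PCB and 0.412% ± 0.067 in WT DMSO (SD, n = 5 each). This is not the share of the whole family, since Ces1c is left out and went the other way. Ces1c alone took 0.358 to 0.448% of assigned reads in KO PCB and 0.313 to 0.371% in KO DMSO. In WT PCB it took 0.218 to 0.322%, and in WT DMSO 0.204 to 0.276%. Ces3a supplied 23.3% ± 3.13 of the members' reads in KO PCB and 28.2% ± 3.95 in KO DMSO, against 43.5% ± 2.27 in WT PCB and 43.6% ± 1.82 in WT DMSO (SD, n = 5 each). Its share was 19.2 to 32.7% over the 10 KO libraries and 40.0 to 46.4% over the 10 WT libraries.

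Knockout was first compared with wild type under PCB-153. Ces3a, Ces3b and Ces1f were lower in KO PCB than in WT PCB, by 2.74, 3.10 and 2.30-fold, and every KO PCB library lay below every WT PCB library for all 3 genes. A gene is called higher or lower here when limma's moderated test gives an adjusted p under 0.05 over all 16155 genes tested in liver. By that rule 0.854% of genes were called lower, 0.594% higher and 1.45% in all, against 3 of 10 members lower and none higher. Groups failed to overlap, with KO lower, for 1.38% of all genes.
Ces3a (chr8:105048601-105058413) read 9458, 9347, 15245, 12201 and 17635 normalised counts in KO PCB, against 34887, 40761, 35548, 34583 and 25397 in WT PCB. The highest KO PCB library was well below the lowest WT PCB library. Its log2 fold change was −1.45 ± 0.23 (SE, limma adjusted p = 0.000929).
Ces3b (chr8:105083753-105093929), the neighbouring copy of Ces3a, read 2767, 1950, 3143, 2929 and 3883 normalised counts in KO PCB, against 10782, 13144, 8788, 8896 and 4956 in WT PCB. The groups were separated, with WT PCB replicate 5 nearest to the KO libraries. Its log2 fold change was −1.63 ± 0.30 (SE, limma adjusted p = 0.00422).
Ces1f (chr8:93256236-93279747), a second triacylglycerol hydrolase of the Ces1 cluster, read 1807, 1130, 981, 2020 and 2595 normalised counts in KO PCB, against 3997, 4340, 3932, 3678 and 2672 in WT PCB. The gap between the groups was narrow, since KO PCB replicate 5 came close to WT PCB replicate 5. Its log2 fold change was −1.20 ± 0.24 (SE, limma adjusted p = 0.00981). All 3 calls held under every alternative run and without any single liver library.
The other 7 members did not pass this test. Ces1e, which encodes egasyn, the protein that holds beta-glucuronidase in the endoplasmic reticulum, averaged 1695 ± 325 normalised counts in KO PCB and 2406 ± 367 in WT PCB (SD, n = 5 each), a log2 fold change of −0.51 (limma adjusted p = 0.106). Without WT PCB replicate 5, its lowest WT PCB library at 1768, the value was −0.62 (adjusted p = 0.0251). Ces2a had a log2 fold change of 0.46 (limma adjusted p = 0.108), which passed with DESeq2 (adjusted p = 0.0491) and after quantile normalisation (adjusted p = 0.0183). Ces1d had 0.56 (limma adjusted p = 0.19), Ces2c −0.68 (0.503 by the same test) and Ces2e −0.40 (0.52). Ces1b and Ces1g, at −0.07 and 0.09, were nearest to 0. The median log2 fold change of the 10 members was −0.46, with 7 below 0, beside 0.00206 over all genes tested.

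**Figure D2:**
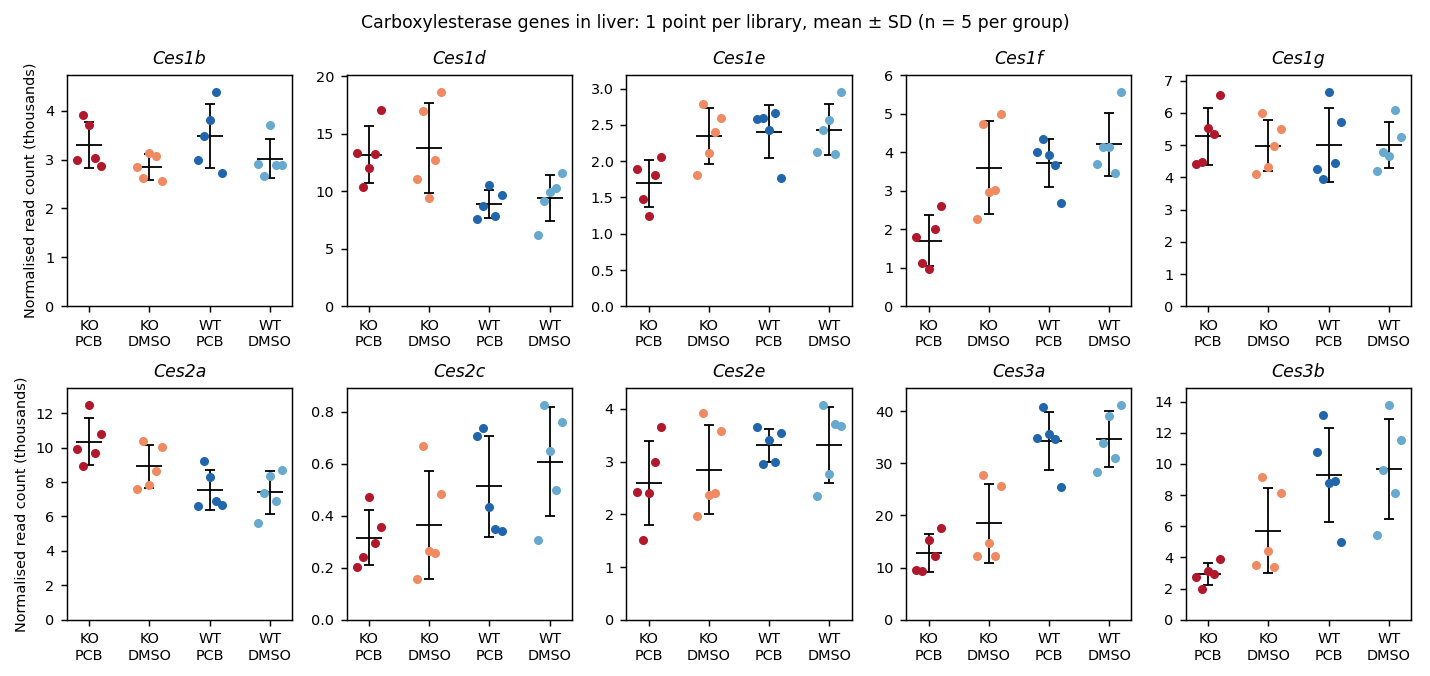
Normalised read counts (k) of each carboxylesterase gene in liver, with 1 point per library and the mean ± SD of 5 libraries for KO PCB, KO DMSO, WT PCB and WT DMSO from left to right. For Ces3a, Ces3b and Ces1f every KO PCB point lies below every WT PCB point, and for Ces3a every KO DMSO point lies below every WT DMSO point.

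Under vehicle, 1 of the 10 members was called. Ces3a read 12305, 27836, 14706, 12176 and 25608 normalised counts in KO DMSO, against 28392, 33959, 39161, 31013 and 41180 in WT DMSO. The groups did not overlap, but KO DMSO replicates 2 and 5 came close to the lowest WT DMSO library. Its log2 fold change was −0.99 ± 0.23 (SE, limma adjusted p = 0.0482). This call was at the edge of the threshold: it was lost in 4 of 9 other settings and without 15 of the 20 liver libraries in turn, with an adjusted p of 0.0105 to 0.194, while the log2 fold change stayed between −1.16 and −0.86. It held without WT PCB replicate 5, KO DMSO replicate 2, KO DMSO replicate 5, KO PCB replicate 2 or KO PCB replicate 5, and was lost without any one of the others. In this comparison 0.272% of all genes were called lower, 0.607% were called in all, and groups failed to overlap with KO lower for 1.61%.
Ces3b read 3488, 9144, 4408, 3367 and 8119 normalised counts in KO DMSO, against 5421, 9606, 13784, 8111 and 11531 in WT DMSO. The groups overlapped through KO DMSO replicates 2 and 5, and the log2 fold change was −0.83 ± 0.30 (SE, limma adjusted p = 0.254). Ces1f averaged 3599 ± 1207 normalised counts in KO DMSO and 4207 ± 817 in WT DMSO (SD, n = 5 each), a log2 fold change of −0.27 (limma adjusted p = 0.667). Ces2c had −0.84 (limma adjusted p = 0.315), Ces1d 0.53 (0.23 by the same test) and Ces2a 0.27 (0.405). The median of the 10 members was −0.16, with 8 below 0, beside 0.00712 over all genes tested.

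Averaged over both exposures, 5 of the 10 members were called between KO and WT livers, beside 4.56% of all genes tested. Ces3a (−1.22 ± 0.16, limma adjusted p = 6.3e-05), Ces3b (−1.23 ± 0.21, adjusted p = 0.00119) and Ces1f (−0.73 ± 0.17, adjusted p = 0.0143) were lower in KO, beside 2.45% of all genes. Ces1d and Ces2a were higher in KO, beside 2.12% of all genes. This contrast uses the same libraries as both comparisons above and is no separate evidence.
Ces1d (chr8:93166068-93197838) read 13361, 10334, 11997, 13266.5 and 17041 normalised counts in KO PCB and 11089, 16957, 9403, 12698.5 and 18659 in KO DMSO, against 7631, 8757, 10554, 7843 and 9691 in WT PCB and 6209, 9149, 9919, 10252 and 11599 in WT DMSO. The groups overlapped, with KO PCB replicate 2 and KO DMSO replicates 1 and 3 inside the range of the WT libraries. The averaged log2 fold change was 0.54 ± 0.13 (SE, limma adjusted p = 0.0177), and it stayed called in all 8 other settings and without any single library. Ces1d thus moved in the opposite direction to Ces1f, although both are known as triglyceride hydrolases.
Ces2a (chr8:104734003-104741634), which hydrolyses drugs as well as di- and triacylglycerol, averaged 10356 ± 1358 normalised counts in KO PCB and 8906 ± 1272 in KO DMSO, against 7538 ± 1176 in WT PCB and 7398 ± 1236 in WT DMSO (SD, n = 5 each). Its averaged log2 fold change was 0.37 ± 0.09 (SE, limma adjusted p = 0.0284). The call was lost with no filter on low values (adjusted p = 0.0589), and without WT PCB replicate 1 (0.0549), WT PCB replicate 4 (0.0536) or KO PCB replicate 3 (0.0512). Ces2c averaged 315 ± 106 and 365 ± 207 normalised counts in KO PCB and KO DMSO, against 513 ± 194 and 608 ± 210 in WT PCB and WT DMSO (SD, n = 5 each), an averaged log2 fold change of −0.76 (limma adjusted p = 0.0796). It passed without WT DMSO replicate 1 (adjusted p = 0.0388) or KO DMSO replicate 2 (0.0266).
In bulk tissue, fewer cells of a type and less RNA per cell cannot be told apart. None of the 10 hepatocyte markers was called between KO and WT, and their summed normalised count was 2144720 to 2791600 in KO PCB and 2226180 to 2745220 in KO DMSO, against 2248530 to 2850760 in WT PCB and 2411140 to 2541840 in WT DMSO. Among markers of other cells, the endothelial Pecam1 was higher in KO (0.52, limma adjusted p = 0.0481, 1 of 5 endothelial markers tested) and the erythroid Alas2 lower (−1.11, adjusted p = 0.000217, 1 of 3 erythroid markers tested), and their part in these results was not tested. The Pecam1 call held only without WT DMSO replicate 1, WT DMSO replicate 4, WT PCB replicate 5 or KO DMSO replicate 4, and was lost without any other library (adjusted p = 0.0134 to 0.0988), with no filter and after quantile normalisation (up to 0.0771).

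PCB-153 was compared with vehicle within each genotype, and no member was called. In WT livers the members' log2 fold changes lay between −0.24 (Ces2c) and 0.20 (Ces1b), with 0 of 10 members under an unadjusted p of 0.05. All genes together gave 0% called by limma, 1081 genes under an unadjusted p of 0.05, and 0 called by edgeR or DESeq2. In KO livers limma called 0% of all genes and 0 of 10 members, with 4 members and 1592 of all 16155 genes under an unadjusted p of 0.05. edgeR called none of the members and DESeq2 called Ces1f.
Ces1f, at 981 to 2595 normalised counts in KO PCB, read 2260, 4746, 2962, 3022 and 5004 in KO DMSO. The groups overlapped only through KO PCB replicate 5 and KO DMSO replicate 1. Its log2 fold change was −1.10 ± 0.24 (SE, limma adjusted p = 0.129), and DESeq2 gave −1.08 with an adjusted p of 0.00336, as did the authors' deposited table. Ces3b (−0.86), Ces3a (−0.49) and Ces1e (−0.47) had limma adjusted p-values of 0.412, 0.498 and 0.396, and the other 6 members lay between −0.14 and 0.22.
The test of whether the PCB-153 effect differed between KO and WT called no gene (0%) by limma, edgeR or DESeq2, with 435 genes under an unadjusted p of 0.05. Of the members, Ces1f had the largest difference of log2 fold changes, −0.93 ± 0.34 (SE), followed by Ces3b with −0.80 ± 0.42, Ces3a with −0.46 ± 0.32 and Ces1e with −0.45 ± 0.21, all with a limma adjusted p of 0.9999. Averaged over genotypes, limma called 0 of 10 members and 0% of genes, 4 members and 2670 of all 16155 genes had an unadjusted p under 0.05, edgeR called no member and DESeq2 called Ces1f (−0.63, adjusted p = 0.0484).

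**Figure D3:**
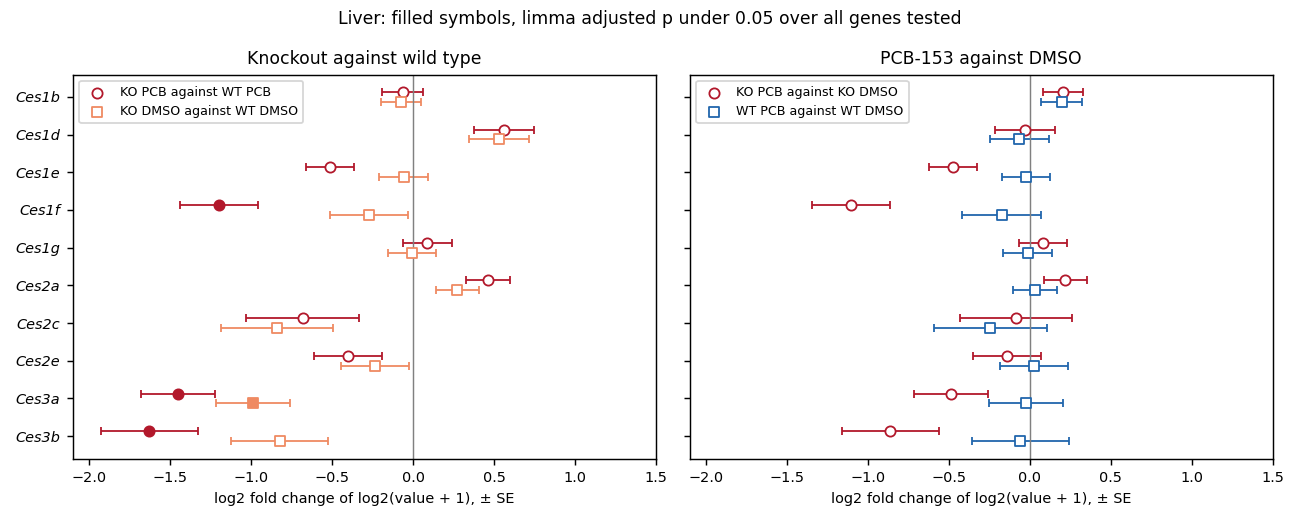
Log2 fold change ± SE of each carboxylesterase gene in liver on the log2(value + 1) scale, for KO against WT on the left and PCB-153 against DMSO on the right, with filled symbols where limma's adjusted p over all genes tested was under 0.05. Ces3a, Ces3b and Ces1f are filled under PCB-153 and Ces3a under DMSO, and no symbol is filled on the right.

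Libraries of the KO DMSO group split in the same way for most of the 10 members. Replicates 2 and 5 had the highest 2 values of the group for 9 of 10 members, all but Ces1b, and the same was true of 20.8% of all genes tested. Outside the members, the pseudogene Ces2d-ps had 177 and 124 normalised counts in replicates 2 and 5, against 46.7 to 89.9 in the others. Ces1c did not split so, at 61535, 62726, 63552, 70723 and 57349 normalised counts in KO DMSO replicates 1 to 5. The 10 members summed to 85094 and 82151 normalised counts in replicates 2 and 5, and to 47622 to 53028 in the other 3. These libraries also had the lowest hepatocyte marker sums of the group, 2226180 and 2260520 against 2601590 to 2745220, and the part of this difference in the results was not tested. Without replicate 2 the KO DMSO against WT DMSO log2 fold change of Ces3a was −1.16 (limma adjusted p = 0.0105), and without replicate 5 it was −1.13 (adjusted p = 0.0187).

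Of the 10 further carboxylesterase genes, 4 were expressed enough in liver to be tested. Ces1c, the esterase secreted into mouse plasma, was the most abundant of the family, with a mean length-scaled level of 1682 ± 147 in KO PCB and 1462 ± 91.7 in KO DMSO, against 1177 ± 165 in WT PCB and 1074 ± 124 in WT DMSO (SD, n = 5 each). It was higher in KO when both exposures were averaged (log2 fold change 0.44, limma adjusted p = 0.00315), without any single library too, although not with no filter on low values (adjusted p = 0.0574). Ces4a was lower in KO (−1.90, limma adjusted p = 0.00119), with 19.4 ± 12.7 normalised counts in KO PCB and 16.8 ± 14.5 in KO DMSO, against 73.2 ± 41.1 in WT PCB and 52.1 ± 12.0 in WT DMSO (SD, n = 5 each). Ces2g and the pseudogene Ces2d-ps were not called in this contrast. The remaining 6 genes, Ces1a, Ces1h, Ces2b, Ces2f, Ces2h and Ces5a, averaged at most 9.39 normalised counts in any liver group.
Other esterases, lipases and regulators were counted from lists chosen with earlier results known, using the averaged KO against WT contrast, in which 2.12% of all genes were called higher and 2.45% lower. Of 12 genes tested from a list of ester, amide and epoxide hydrolases, only the epoxide hydrolases Ephx1 (−0.48, limma adjusted p = 0.00473) and Ephx2 (−0.46, adjusted p = 0.0151) were called. Both were lower, and no ester or amide hydrolase of the list was called. The list median was 0.00549. Of 15 lipolysis and lipid droplet genes, Pnpla3 was higher (1.73, limma adjusted p = 0.00355) while Mgll, monoglyceride lipase (−0.72, adjusted p = 0.0109), and Cideb (−0.30, adjusted p = 0.0112) were lower, with a list median of −0.22. Of 12 genes of triglyceride assembly and secretion, Tm6sf2 (0.52, limma adjusted p = 0.00452) and Apoa4 (0.73, adjusted p = 0.0362) were higher and none was lower, with a list median of 0.07. Of 13 nuclear receptors and regulators, Cux2, known as a female-predominant liver factor, was higher (3.09, limma adjusted p = 0.0016) and Nr1h4 (−0.31, adjusted p = 0.0333) and Nr1i2 (−0.93, adjusted p = 0.000317) were lower, with a list median of −0.05. The Apoa4 call was lost without WT DMSO replicates 3, 4 or 5, WT PCB replicate 2, KO DMSO replicates 1, 3 or 4, or KO PCB replicate 1 (adjusted p up to 0.0782), and with no filter on low values (0.0561). That of Nr1h4 was lost without WT DMSO or WT PCB replicates 2, 3 or 4, or KO DMSO or KO PCB replicates 1 or 4 (adjusted p up to 0.0709), with no filter and after quantile normalisation (up to 0.0552). Over all genes the median was 0.00586.

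For each member, the gene outside the family whose log2 level was most alike over the 20 liver libraries was picked by Pearson correlation from 12219 genes. These r values are the highest of many and describe libraries that share group and depth. Ces3a was most like Hsd3b5, a male-predominant steroid reductase of the liver (r = 0.989). Hsd3b5 itself had a log2 fold change of −7.09 in KO PCB against WT PCB (limma adjusted p = 0.000236) and −4.54 in KO DMSO against WT DMSO (adjusted p = 0.0274). The sex of the animals is not stated here, and its part in the values of Ces3a, Hsd3b5 and Cux2 was not tested. Ces3b was most like Nudt7, a peroxisomal coenzyme A hydrolase (r = 0.97), and Ces1f most like the complement gene C9 (r = 0.922).
Ces2a was most like Gm7208 (r = 0.957), the pseudogene with which it shares 16.3% of its words. Reads of either gene may have been counted for the other. Gm7208 lies at chr8:104675536-104682211, in the same region as Ces2a (chr8:104734003-104741634). The part of shared reads or of position in this likeness was not tested. Ces1d was most like Poglut1 (r = 0.882), which lies on chromosome 16, 0.23 Mb from Nr1i2. The nearest genes were Mbl1 for Ces2c (r = 0.919), Rmdn3 for Ces2e (r = 0.898), Apoh for Ces1b (r = 0.878), Srd5a1 for Ces1e (r = 0.868) and Pkhd1 for Ces1g (r = 0.813).

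In spleen, where a direction rests on the genotype labels, the 10 members together took 4.98e-05 to 0.00145% of assigned reads, against 0.244 to 0.48% in liver. Ces1d was the only member over the filter, with a median of 30.1 normalised counts over 19 spleens. It read 30.1, 21.9, 24.6, 28.6 and 0.847 in labelled KO PCB and 31.9, 5.48, 37.4, 61.8 and 22.2 in labelled KO DMSO, against 39.1, 13.05, 35.4, 52.9 and 18.1 in WT PCB and 34.1, 36.5, 6.05 and 30.3 in WT DMSO. All groups overlapped. Its log2 fold change was −0.88 ± 0.70 in labelled KO PCB against WT PCB and 0.16 ± 0.74 in labelled KO DMSO against WT DMSO (SE, limma adjusted p = 0.718 and 0.952). For PCB-153 against vehicle it was −0.72 ± 0.70 in labelled KO and 0.33 ± 0.74 in WT spleens (SE, limma adjusted p = 0.559 and 0.962). These values rest on 1 to 67 reads per library. In these comparisons limma called 0.157%, 0.0315%, 5.3% and 0% of all 19058 genes tested in spleen, in the order just given. For the last of these, 727 genes had an unadjusted p under 0.05, edgeR called 0 and DESeq2 3. The count behind 5.3% is unstable: it is 1010 genes, and 10 to 3702 without single spleens (10 without labelled KO PCB replicate 4, 3702 without labelled KO PCB replicate 2).
The lowest levels of Ces1d fell in the spleens with the lowest fat cell marker sums. The 5 spleens with the lowest sums of 8 adipocyte markers, 31.3 to 314 normalised counts, were also the 5 lowest for Ces1d, at 0.847 to 18.1. The other 14 spleens had adipocyte sums of 547 to 1437 and Ces1d at 21.9 to 61.8. These 5 spleens came from all 4 groups. The highest Ces1d value, 61.8 in labelled KO DMSO replicate 4, came with an adipocyte sum of 578 and the highest hepatocyte marker sum. Ces1f read 0 to 2.27 normalised counts in the 5 spleens lowest in adipocyte markers and 0 to 17.9 in the other 14. Of those 5 spleens, 4 were among the lowest 5 for Ces1f. Whether fat cells or hepatocytes gave the Ces1d or Ces1f reads was not tested.
Ces1b, Ces2a, Ces3a and Ces3b had their highest 3 values in the 3 spleens with the highest hepatocyte marker sums. Those were labelled KO DMSO replicate 4 with a sum of 12810 normalised counts, WT PCB replicate 1 with 4167 and WT DMSO replicate 1 with 1513, while the other 16 had 39.4 to 607. Ces3a read 59.1, 73.6 and 17.6 normalised counts in these libraries and 0 to 4.54 in the rest. Ces1f, Ces2e and Ces2c had medians of 9.40, 7.70 and 4.53 normalised counts over the 19 spleens, and Ces1e and Ces1g were listed at 0 in most of them. Of the further family members Ces2g was the abundant one in spleen, at 2956 to 4783 normalised counts in labelled KO PCB, 2679 to 3183 in labelled KO DMSO, 3396 to 4023 in WT PCB and 2537 to 3750 in WT DMSO. It was called higher in labelled KO PCB than in labelled KO DMSO spleens (log2 fold change 0.44, limma adjusted p = 0.0413). This call held in 5 of 9 other settings and without any one of WT DMSO replicates 1, 3, 4 and 5, WT PCB replicate 1, labelled KO DMSO replicate 1 or labelled KO PCB replicates 2 and 5, and was lost without any other spleen (adjusted p = 0.00399 to 0.127) and with the replicate number as a block (0.0515).

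**Figure D4:**
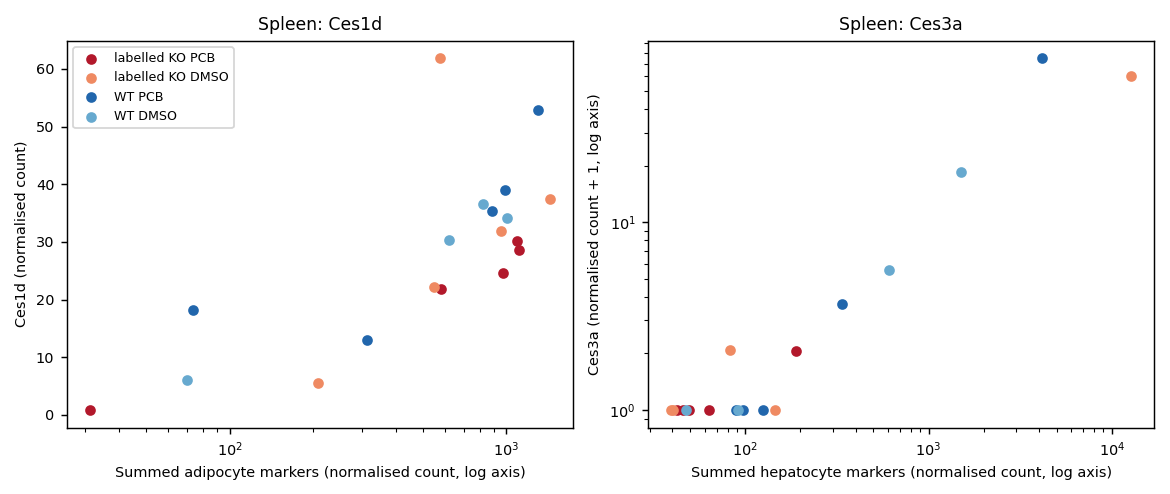
Spleen libraries, 1 point each, with the normalised count of Ces1d against the summed adipocyte markers on the left and that of Ces3a, plus 1, against the summed hepatocyte markers on the right; both marker axes and the Ces3a axis are log axes. The 5 spleens lowest in adipocyte markers are the 5 lowest in Ces1d, and the 3 highest in hepatocyte markers are the 3 highest in Ces3a.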

How the data were processed

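Per the labels' protocols, tissue RNA went into Illumina TruSeq libraries sequenced on a HiSeq4000. FastQC, STAR 2.6.0, featureCounts, DESeq2 (its version given as 3.8) and mm10 are named in the submitters' processing notes, which give no strand setting. Each expression table that the authors deposited holds signal values: normalised read counts, reads divided by 1 size factor per library. Whole reads were recovered from the steps between values (tolerance 0.05 reads, 100% of values). The deposited tables of the authors' DESeq2 comparisons add log2 fold changes, p-values and a test score. Of the gene symbols, 26 per tissue stood as dates in the tables and were put back.

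limma 3.58.1 (eBayes, trend; R 4.3.3) was run on log2(value + 1) for genes with a mean of at least 10, all 4 groups of a tissue together. Tests were two-sided, and p-values were adjusted by Benjamini-Hochberg over all genes tested, with a threshold of 0.05. The pseudocount makes fold changes of low genes too small. Contrasts were KO against WT within each exposure, PCB-153 against DMSO within each genotype, their interaction, and both averages. The alternatives took pseudocounts of 0.5 and 5, no filter, a mean of at least 50, quantile normalisation, only the groups of a contrast, a replicate block, leaving out each library, and edgeR 4.0.16 or DESeq2 1.42.0 on recovered reads. The fit was tested on simulated data.

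The members, gene lists and tests were chosen with earlier results of these data known. Named are all members, the other carboxylesterase genes, Nr1i2, up to 4 called genes with the smallest p of each other list, and for each member the most correlated gene outside the family with a liver mean of at least 50. Positions are from GENCODE M21, matched by symbol. Length-scaled levels divide reads by merged exon length and by the assigned reads of the library. Upstream sequences are from RefSeq (GRCm38.p6), and those of Ces1d, Ces1f and Ces3a are not shown here.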

Additional observations from a re-analysis of the deposited data

Results flagged for a closer look

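In groups of 4 or 5 libraries, 61 sets of values were checked for a highest or lowest library that stood apart from the rest by Dixon's criterion, and 11 had one. Chance gives about 1 in 20 for independent, normally spread values, which does not hold here, since 8 of the 11 came from 2 spleens and genes near 0 in the others. In liver, Ces1b read 3705 normalised counts in WT DMSO replicate 3 against 2667 to 2901 in the other WT DMSO livers. Ces1e read 1768 in WT PCB replicate 5 against 2423 to 2665 in the other WT PCB livers. In spleen, labelled KO DMSO replicate 4, the library with the highest hepatocyte marker sum, was the highest of its group for Ces1b (16.6), Ces1e (11.1), Ces1g (18.5), Ces2a (40.6), Ces3a (59.1) and Ces3b (23.99), against at most 1.10 in the other 4. WT PCB replicate 1, the next in hepatocyte markers, read 73.6 for Ces3a and 26.8 for Ces3b, against at most 2.69 and 0.907 in the other 4. Ces1d read 0.847 in labelled KO PCB replicate 5, the spleen with the lowest adipocyte marker sum, against 21.9 to 30.1 in the other 4.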

How the results depend on the processing

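Of the liver results, the calls of Ces3a, Ces3b and Ces1f in KO PCB against WT PCB, and of Ces3a, Ces3b, Ces1f and Ces1d in the averaged contrast, passed under every alternative and without any single library. The number of members called was 3 to 4 in KO PCB against WT PCB and 4 to 6 in the averaged contrast. In KO DMSO against WT DMSO it was 1, and 0 with no filter, with a mean of at least 50, with the compared groups alone and with edgeR, and 0 to 1 without single libraries. DESeq2 called 1 member for PCB-153 in KO and 1 in the average over genotypes, both times Ces1f, where limma called 0.

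Over all genes, DESeq2 called 266 in KO DMSO against WT DMSO where limma called 98, 394 in KO PCB against WT PCB where limma called 1.45% of the genes tested, 1204 against 737 in the averaged contrast, 61 against 0 for PCB-153 in KO and 94 against 0 for PCB-153 averaged. Leaving out single libraries gave 49 to 146, 124 to 334 and 467 to 1227 in the first 3, and 0 to 184 for PCB-153 averaged. A mean of at least 50 gave 64 in KO DMSO against WT DMSO. In spleen, where limma called 1010 genes in labelled KO PCB against labelled KO DMSO, DESeq2 called 2027, the compared groups alone 184, no filter 232 and left-out libraries 10 to 3702; in labelled KO PCB against WT PCB, with 30, these gave 215, 14, 22 and 10 to 119, and the replicate block 18; and in labelled KO DMSO against WT DMSO, with 6, DESeq2 gave 23, edgeR 10, a mean of at least 50 gave 3 and left-out libraries 4 to 22. The causes were not tested.

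With the replicate number as a block, 1, 3 and 5 members were called in KO DMSO against WT DMSO, KO PCB against WT PCB and the averaged contrast, and 106, 230 and 726 genes. Deviations of same-numbered liver libraries correlated at −0.378 to 0.449, over 0.1 in 10 of 30 pairs. Between KO DMSO and WT DMSO they correlated at 0.0391 to 0.268, not all over 0.1, so the numbers were not treated as pairs. The Ces3a call there held with the block, and the Ces2g call in spleen did not.

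The sign turned only for uncalled values, most of them near 0. The interaction in liver was −0.025 (quantile) and −0.0038 (edgeR) for Ces1b and −0.0081 (quantile) for Ces1d. Ces1g was 0.039 (quantile) and 0.0076 (edgeR) in KO DMSO against WT DMSO, and 0.037 (quantile), 0.0068 (edgeR) and 0.0043 (DESeq2) in WT PCB against WT DMSO, where Ces2e was −0.0013 (edgeR) and −0.0010 (DESeq2) and Ces3a 0.061 (quantile). Without single libraries, log2 fold changes in KO DMSO against WT DMSO ran from −0.12 to 0.0015 for Ces1b, −0.13 to 0.028 for Ces1e and −0.078 to 0.067 for Ces1g. In KO PCB against WT PCB, Ces1b ran from −0.15 to 0.023, and in the averaged contrast Ces1g from −0.0015 to 0.095. In WT PCB against WT DMSO the ranges were −0.21 to 0.018 for Ces1d, −0.072 to 0.086 for Ces1e, −0.12 to 0.066 for Ces1g, −0.064 to 0.095 for Ces2a, −0.094 to 0.11 for Ces2e, −0.093 to 0.080 for Ces3a and −0.25 to 0.15 for Ces3b. In KO PCB against KO DMSO they were −0.16 to 0.089 for Ces1d, −0.0017 to 0.15 for Ces1g, −0.35 to 0.18 for Ces2c and −0.28 to 0.037 for Ces2e. The interaction ran from −0.073 to 0.098 for Ces1b, −0.094 to 0.17 for Ces1d, −0.10 to 0.42 for Ces2c and −0.31 to 0.013 for Ces2e. PCB-153 averaged ran from −0.12 to 0.012 for Ces1d, −0.021 to 0.073 for Ces1g and −0.13 to 0.030 for Ces2e.

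Ces1d in spleen ran from −0.41 to 0.67 in labelled KO DMSO against WT DMSO, −0.24 to 0.59 in WT PCB against WT DMSO, −1.22 to 0.059 in labelled KO PCB against labelled KO DMSO, −0.64 to 0.029 in the averaged genotype contrast and −0.48 to 0.19 for PCB-153 averaged. In spleen 9 of 10 members were under the filter on low values, although the libraries were about as deep as those of liver.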
